A study of Mus musculus with 20 samples.

Results

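The transcripts of 48 genes of the nuclear pore and of nuclear transport were described in cultured mouse motoneurons, out of 39174 genes in the deposited tables. The members were chosen by name among protein-coding genes. They are the nucleoporins whose symbol is Nup followed by a number, the genes whose symbol starts with Kpnb, Ipo, Xpo, Tnpo or Kpna, without Kpna2, and Ran, Rangap1, Ranbp1, Ranbp2 and Tpr.

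Macromolecules enter and leave the nucleus through nuclear pore complexes, which are rings of nucleoporins set into the nuclear envelope. A scaffold of Y-shaped complexes and an inner ring carries channel nucleoporins whose phenylalanine-glycine repeats form the permeability barrier, with filaments on the cytoplasmic side and a basket on the nuclear side. Cargo is carried by importins, transportins and exportins, and the small GTPase Ran sets their direction, because its GTP-bound form releases import cargo in the nucleus and is needed for export. Importin and Ran mRNAs are also known from axons, where importins made locally carry signals of injury back to the cell body. Tdp-43 is an RNA-binding protein that binds UG-rich sequences, shuttles through the pore itself and is lost from the nucleus in amyotrophic lateral sclerosis.

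Motoneurons were enriched with an antibody against p75 from spinal cords of E12.5 CD-1 mouse embryos and grown for 7 days in microfluidic chambers, in which axons grow into a compartment of their own. Control cultures received an empty lentiviral expression vector and are titled GFP in the labels, and Tdp-43 knockdown cultures received a lentiviral shRNA against Tdp-43. Both groups were therefore transduced. The control libraries also served an earlier study, and the methods say that both groups were handled in parallel. RNA from the somatodendritic and from the axonal side was amplified by PCR and sequenced, which gave 4 control and 6 knockdown libraries of each compartment, 20 in all. The axonal side holds axons and whatever other RNA was on that side of the chamber, and the somatodendritic side holds cell bodies, dendrites and proximal axons. The labels name no culture, so that p-values measure the spread between libraries. The unit is FPKM, which divides the fragments of a gene by the length of its transcripts and by the mapped fragments of the library. It is a level per length, by which genes are set side by side here. The length taken for each gene is not given in the sources used here, so that the order of genes is uncertain.

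The depth differed between libraries. Read from the width of the 95% interval that came with each FPKM value, the depth relative to the deepest library lay between 0.612 and 1 for control and between 0.143 and 0.698 for knockdown libraries of the somatodendritic side. For the axonal side it lay between 0.53 and 0.675 and between 0.103 and 0.761. The median member had an implied 0.692 to 11.9 fragments per library, and 31 of the 48 members were above 0 in all 20 libraries. In axonal knockdown replicate 5, the shallowest library, 36 members were above 0. The 5 libraries with a relative depth under 0.5, which are somatodendritic knockdown replicates 5 and 6 and axonal knockdown replicates 2, 4 and 5, are called shallow. The implied fragments are read from these intervals and are not counts of fragments. They differed between genes of similar level. In axonal controls Xpo4 at 2.12 ± 0.14 FPKM (SD) had a median of 0.0742, and Xpo7 at 2.54 ± 1.13 FPKM had 13.2. They do not cover all error, since amplified fragments are not independent molecules.

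The targeted transcript was checked first. Tardbp, which encodes Tdp-43, was at 30.8, 19.0, 29.6 and 29.9 FPKM in somatodendritic control libraries and at 0, 3.86 and 8.54 FPKM as the lowest, median and highest of the 6 knockdown libraries, a level of 14.7% ± 12.6 (SD, n = 6) of control (two-sided exact permutation p = 0.00476, the smallest that 4 against 6 libraries allow). On the axonal side, control libraries were at 32.4, 20.2, 32.3 and 13.4 FPKM and knockdown libraries at 1.21, 12.3 and 33.2 FPKM, which is 52.9% ± 45.1 (SD, n = 6) of control (exact permutation p = 0.138). With scaled values, on which the tests of genes rest, it was at 35.1% of control (exact permutation p = 0.00952). The highest of these, the library labelled axonal knockdown replicate 1, was as high as the controls. Without it the level as deposited was 36.5%, in place of 52.9% (exact permutation p = 0.0159).

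Of the markers that define motoneurons, Chat, Isl2 and Mnx1 were at 0 in all 20 libraries. The 11 genes of the motoneuron list in the files summed to 174.5 to 211.6 FPKM in somatodendritic controls, most of it from the neurofilaments Nefl (86.7 to 115 FPKM) and Nefm (72.1 to 94.5 FPKM), and there the receptor Ret was at 4.57 to 9.82 FPKM and the transcription factor Isl1 above 0 in 3 of 4 libraries. The list summed to 52.4 to 112.8 FPKM in axonal controls. The 7 general neuron markers summed to 2048 to 2956 FPKM in somatodendritic and 553 to 1906 FPKM in axonal libraries. Markers of astrocytes and radial glia summed to 334 to 627 FPKM on the somatodendritic and 327 to 1253 FPKM on the axonal side. The libraries are called motoneuron libraries here as the labels have it.

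Among the members, the highest mean over the 20 libraries was that of Xpo6, the exportin of actin, at 117 FPKM. Ranbp1, the Ran-binding cofactor that helps to take Ran-GTP off transport receptors, and Tpr, the coiled-coil protein of the nuclear basket, followed at 74.4 FPKM each, then Kpnb1, importin beta, at 51.3 FPKM, and Ipo9, an importin of histones, at 41.9 FPKM. These 5 genes held between 33.3% and 46.7% of the summed FPKM of the members in each library. Tnpo1 (32.0 FPKM), a transportin that imports RNA-binding proteins, Nup62 (28.4 FPKM), a channel nucleoporin, Tnpo2 (27.9 FPKM), a close relative of Tnpo1, Ipo4 (27.7 FPKM), an importin of histones, and Nup88 (25.5 FPKM), which holds Nup214 at the cytoplasmic face, completed the first 10. Neighbours in this order overlapped between libraries: in somatodendritic controls Xpo6 was at 97.8 ± 21.6 and Ranbp1 at 70.7 ± 13.9 FPKM (SD, n = 4), and Tpr at 64.6 ± 24.5 FPKM. Implied fragments did not follow the order. In these controls their median was 26.1 for Xpo6 and 72.4 for Tnpo2, with GENCODE M21 transcripts of 4552 and 4884 bases.

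None of the scaffold nucleoporins was among the members of highest mean. Exportins were at a similar level, with a median of group means of 8.27 FPKM in somatodendritic and 5.80 FPKM in axonal controls. The inner ring was at 6.56 and 7.34 FPKM. The 6 members of the Y-shaped complex had group means of 0.367 to 17.7 FPKM in somatodendritic and 1.87 to 19.8 FPKM in axonal controls, and the 5 members of the inner ring of 4.0 to 13.2 and 3.80 to 9.96 FPKM. The importin beta family spanned 8.70 to 39.7 FPKM in somatodendritic controls. Nup37 of the Y-shaped complex was at 1.47 FPKM in somatodendritic control replicate 1 and at 0 in the other 3 libraries of that group, whereas Nup107 of the same complex was at 4.42 ± 0.69 FPKM.

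3 members were near or at 0. Kpna7, an importin alpha of oocytes and early embryos, was at 0 in all 20 libraries. Nup210l, a relative of Nup210, was at 0 in all libraries of both control groups and above 0 in somatodendritic knockdown replicate 4 (0.35 FPKM) and axonal knockdown replicates 2 (2.31 FPKM) and 3 (0.322 FPKM). Nup62cl, a relative of Nup62, was at 0 in the 6 axonal knockdown libraries and reached 6.82 FPKM in somatodendritic knockdown replicate 2.

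Some members share sequence with other genes, and how fragments were assigned there is not given in the sources used here. Compared with GENCODE M21 transcripts, Ran has a processed pseudogene, Gm13461, with 97.3% identity over 662 bases, which the files list at a mean of 26.2 FPKM, above Ran itself at 21.9 FPKM. Tnpo1 has Gm6493 with 97.2% identity over 2656 bases (mean of 7.91 FPKM). Kpnb1 shares 466 exonic bases with an antisense gene, Gm11583 (8.56 FPKM). The values of Ran, Tnpo1 and Kpnb1, and likewise of Nup35, Nup54 and Xpot, which have copies in the files, and Ipo4, Xpo4 and Nup133, which overlap or resemble genes of the annotation that are not used here, are therefore uncertain. Tpr, Ranbp1, Rangap1, Nup88, Nup214, Tnpo2, Tnpo3 and others also share exonic stretches with genes on the opposite strand, the longest being 666 bases of Tnpo2 with A230103J11Rik (2.37 FPKM) and 492 bases of Nup188 with Gm14471 (0.201 FPKM).

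Since Tdp-43 binds UG repeats, runs of at least 3 TG units, that is the letters TGTGTG on the strand of the transcript, were searched in the GENCODE M21 transcript with the longest coding sequence of each gene. Of the 48 members 47 could be matched by gene ID, all but Nup62. The 3′ untranslated region held such a run in 24 of the 47, or 51.1%, against 50.6% of 11939 protein-coding genes whose mean reached 1 FPKM and 41.9% of 21140 protein-coding genes in all, so that the members were at the level of expressed genes. The median length of the region was 1077 bases in members and 1015 bases in expressed genes. Longest were the runs of Nup133 (48 bases), Nup93 (36 bases) and Xpo1 (18 bases). The windows around the longest run are shown for 7 of the members called in the comparisons that have such a run, 5′ to 3′ on the strand of the transcript with the run in capitals. They lie in GRCm38 at chr5:129023828-129023857 (Ran, plus strand), chr14:120946895-120946924 (Ipo5, plus), chr13:98843539-98843568 (Tnpo1, minus), chr15:84942034-84942063 (Nup50, plus), chr6:91013199-91013228 (Nup210, minus), chr11:97162138-97162167 (Kpnb1, minus) and chr14:61366888-61366917 (Kpna3, minus), each within 1 exon.
Ran: ttgagacttaggTGTGTGatcccggcacaa
Ipo5: gagcagtagtgtTGTGTGtaggccgttctt
Tnpo1: ttgatattgtatTGTGTGtaacctgcacaa
Nup50: tcttcttccacTGTGTGTGtagctggttcc
Nup210: ctttgaaggtcaTGTGTGatcctttgaggc
Kpnb1: ctgagaatgagTGTGTGTGagtgaggcggt
Kpna3: ctcacttcagccTGTGTGttcctgctgttt
Nup153 was called and has a run that is not shown, and the 3′ untranslated regions of Ipo4, Ipo9, Kpna6, Ranbp2, Nup160 and Nup37, which were called as well, hold none. A run is a description of the letters and no binding site, and no run of this kind was found anywhere in the matched transcripts of Ipo9, Kpna1, Nup107, Nup205, Nup210l, Nup214, Nup35, Nup88, Ranbp1 and Tpr.

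The comparison of knockdown with control asks which transcripts change when Tdp-43 is lost. FPKM values were scaled between libraries, set to log2(FPKM + 1) and tested with limma over all genes whose mean reached 1 scaled FPKM. A gene is called higher or lower where its unadjusted p was under 0.05, the threshold of the study, and calls with an adjusted p under 0.05 are counted beside that (Benjamini-Hochberg over all genes tested). A log2 difference on this scale understates the change of low genes. In bulk RNA, fewer cells of a type and less RNA per cell cannot be told apart.

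On the somatodendritic side Tnpo1, Nup50, Nup62 and Nup210 rose and Ipo5 and Ran fell at the unadjusted threshold, 6 of 46 members tested. No member passed the adjusted threshold, against 134 of the 13734 genes tested. The 4 that rose are a transportin and 3 nucleoporins of the basket, the channel and the membrane ring, and the 2 that fell are an importin and the GTPase itself. Over all genes tested 4.61% rose and 9.3% fell at the unadjusted threshold and 0.976% were called at the adjusted threshold. The members' own shares were 8.70% and 4.35%. The median log2 difference was -0.07 over the members tested and -0.14 over all genes tested.

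Tnpo1 (chromosome 13, 98839019 to 98926384, GRCm38) had 17.2, 17.7, 23.1 and 24.4 FPKM in control libraries and 33.7, 39.6 and 45.9 FPKM as the lowest, median and highest of the knockdown libraries. The groups did not overlap, and each knockdown library was above each control. The log2 difference was 0.72 ± 0.18 (SE; adjusted p = 0.0808), and it stayed past the unadjusted threshold when any library was left out. Its adjusted p was 0.0291 with FPKM as deposited and 0.0394 with array weights, within a range of 0.0291 to 0.596 over the settings tried. The pseudogene copy Gm6493 was higher as well, at 10.1 ± 5.0 FPKM in knockdown (SD, n = 6) and 2.93 ± 3.08 FPKM in control libraries (SD, n = 4), with a log2 difference of 1.53 ± 0.51 (adjusted p = 0.19). What part the shared sequence has in the values of both was not tested.

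Nup50 (chromosome 15, 84923428 to 84942955), a mobile basket nucleoporin that binds importin alpha, had control values of 7.05, 4.30, 4.97 and 7.34 FPKM. Knockdown libraries ran from 9.13 over a median of 13.5 to 22.8 FPKM. Again no knockdown library reached down to the controls, and the log2 difference of 0.92 ± 0.29 (adjusted p = 0.159) kept its call without any 1 library. With array weights the adjusted p was 0.0494, in a range of 0.0494 to 0.622.

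Nup62 (chromosome 7, 44816088 to 44830809) was at 8.88, 17.8, 25.6 and 13.5 FPKM in controls and at 28.5, 40.9 and 91.4 FPKM in knockdown libraries. The deposited values do not overlap, while after scaling the highest control library (27.3 scaled FPKM) was above the lowest knockdown library (26.6 scaled FPKM). The log2 difference was 1.22 ± 0.36 (adjusted p = 0.135). Its median implied number of fragments was 3.61 in knockdown libraries, where the highest value came from replicate 6, the shallowest somatodendritic library. The call was kept without that library and lost with all 20 libraries in 1 fit.

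Nup210 (chromosome 6, 91013068 to 91116829), which spans the pore membrane, had 7.33, 18.4, 4.76 and 10.3 FPKM in control libraries against 13.8, 20.7 and 27.5 FPKM. The groups overlapped. The log2 difference of 0.86 ± 0.35 (adjusted p = 0.297) lost its call in 5 of the 10 fits that left out a library (control replicates 1 and 3 and knockdown replicates 2, 3 and 6), with the replicate number as a block, with all 20 libraries in 1 fit and without the shallow libraries. Its median implied number of fragments was 0.897 in controls.

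Ipo5 (chromosome 14, 120911194 to 120948042), an importin of ribosomal proteins and histones, was very even in control libraries, at 15.8, 16.3, 15.7 and 17.1 FPKM. Knockdown libraries were at 4.19, 12.3 and 16.5 FPKM. After scaling, the highest knockdown library was at 14.4 and the lowest control at 16.7 scaled FPKM, so that the groups did not overlap, whereas the deposited values of 1 knockdown library reached the controls. The log2 difference was -0.79 ± 0.31 (adjusted p = 0.274), and the call was lost with FPKM as deposited, with all 20 libraries in 1 fit and without control replicate 2 or 4.

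Ran (chromosome 5, 129020069 to 129024323) was at 25.0, 12.7, 23.1 and 27.1 FPKM in control and at 8.20, 15.4 and 22.4 FPKM in knockdown libraries. Control replicate 2 lay within the knockdown range. The log2 difference of -0.78 ± 0.31 (adjusted p = 0.288) lost its call with FPKM as deposited and without any 1 of control replicates 1, 3 and 4 and knockdown replicates 1 and 2. The copy Gm13461 had a log2 difference of -0.78 ± 0.50 (adjusted p = 0.54), with 26.7 ± 10.8 FPKM (SD, n = 4) in control and 20.9 ± 16.3 FPKM (SD, n = 6) in knockdown libraries.

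The plot of FPKM by library shows Tnpo1, Nup50, Nup62, Ipo5 and Ran, without Nup210, beside Kpnb1, Kpna3 and Ranbp2.

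**Figure D1:**
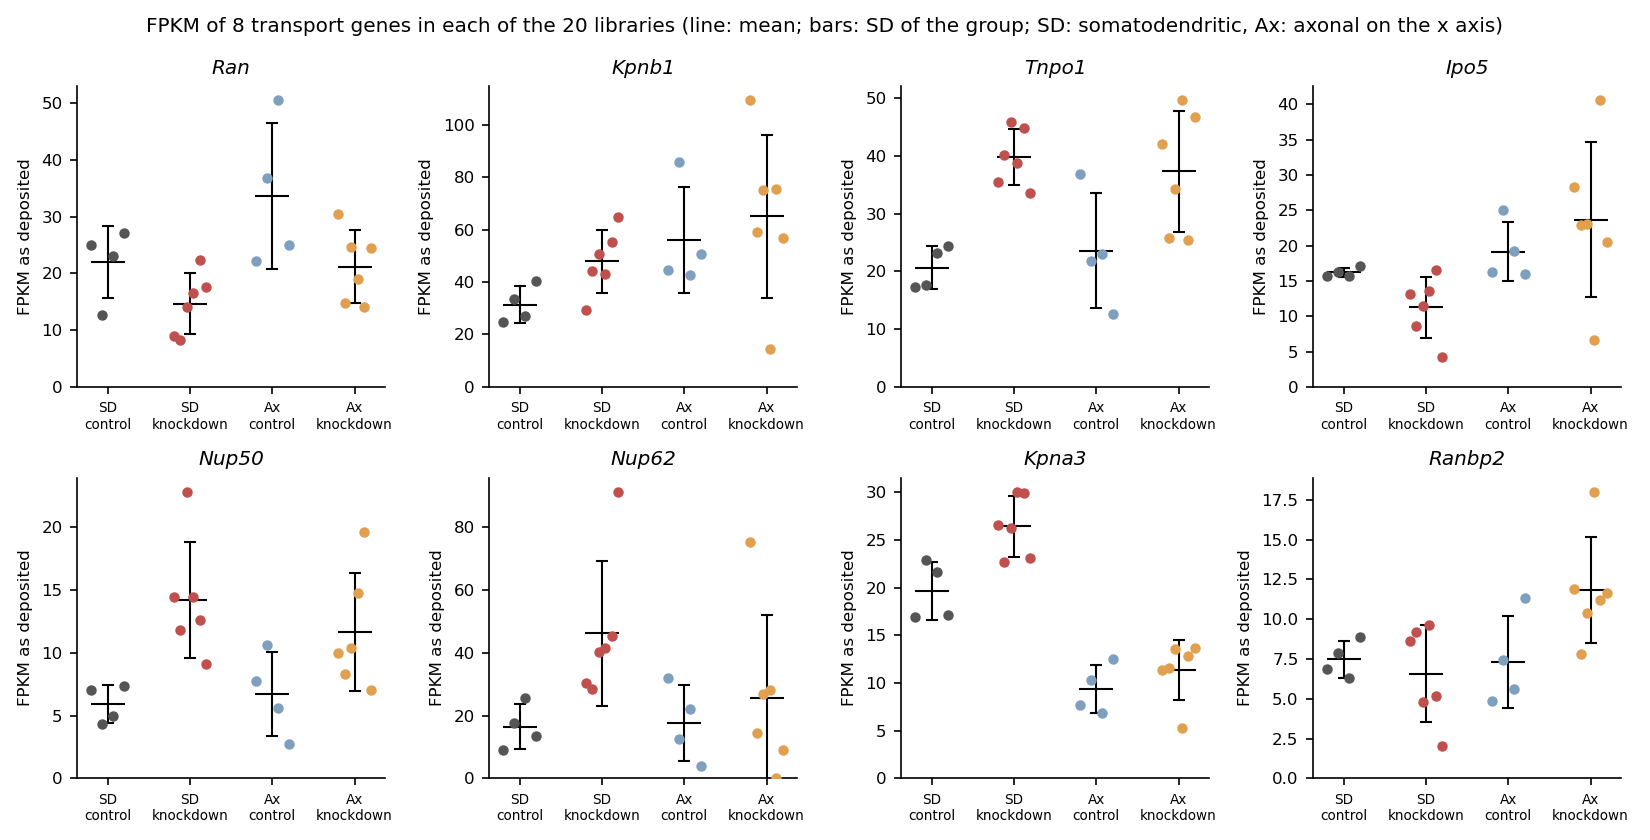
Deposited FPKM of 8 members in each library (y axis, from 0) in the 4 groups (x axis; SD, somatodendritic, 4 control and 6 knockdown libraries; Ax, axonal, 4 and 6). Points are libraries, the line is the mean and the bars the SD, which end at 0 where they would go below; Tnpo1 and Nup50 show no overlap between somatodendritic control and knockdown, and Kpna3 is lower in axonal than in somatodendritic libraries of both kinds.

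Without overlap between the scaled values of control and knockdown libraries, 2 members were higher (Tnpo1 and Nup50; 1.9% of all genes tested) and 1 was lower (Ipo5; 3.63%). Besides these 3 and Nup62, Nup210 and Ran, no member passed a threshold here. Kpnb1 was at 31.4 ± 7.0 and 47.8 ± 12.2 FPKM (log2 difference 0.37 ± 0.24, adjusted p = 0.55), and its co-receptors of the importin alpha family were Kpna3 (19.6 ± 3.1 and 26.4 ± 3.2 FPKM, log2 difference 0.21 ± 0.19), Kpna1 (0.19 ± 0.36), Kpna4 (-0.25 ± 0.27) and Kpna6 (-0.86 ± 0.44, adjusted p = 0.416). Xpo1, the exportin of proteins with a leucine-rich signal, was at 17.4 ± 4.0 and 16.6 ± 3.6 FPKM (-0.26 ± 0.24), and Xpot, which exports tRNA, at 7.37 ± 3.17 and 6.82 ± 2.65 FPKM (-0.27 ± 0.35). Xpo6 (0.42 ± 0.24, adjusted p = 0.491), Ranbp1 (0.06 ± 0.22) and Rangap1, which makes Ran hydrolyse GTP in the cytoplasm (-0.37 ± 0.23), did not pass either. Among nucleoporins, Tpr (0.10 ± 0.23), Nup153 of the basket (0.27 ± 0.32), Nup98 of the channel (-0.03 ± 0.38), Nup107 (0.00 ± 0.34), and Ranbp2 (-0.47 ± 0.37), Nup214 (-0.35 ± 0.48) and Nup88 (-0.56 ± 0.31) of the cytoplasmic filaments were within 2 SE of 0. The median SE over the members was 0.35.

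The scaling mattered to the direction of the calls. With FPKM as deposited, 7 members were called higher and none lower, or 15.2% of members against 14.7% of all genes called in either direction: Tnpo1, Nup50, Nup62 and Nup210 as before, and Kpnb1, Xpo6 and Tnpo2. Over all genes the same change moved the share of calls that were higher from 33.1% to 63.0% and the median log2 difference from -0.14 to 0.04. Markers of dividing cells moved with the groups: their 12 genes summed to 84.9 to 114.5 FPKM in control and 20.7 to 103 FPKM in knockdown libraries, with 2 of 12 lower, Ccnb1 and Ccna2, and a median log2 difference of -0.91. Motoneuron markers summed to 174.5 to 211.6 and 81.5 to 157.3 FPKM, without overlap, with 2 of 5 lower, Nefl (-1.37 ± 0.17, adjusted p = 0.00143) and Nefm (-0.88 ± 0.29). Of astrocyte markers 2 were higher, Gfap and Slc1a2, and 2 lower, Fabp7 and Vim. The Olig1 and Syt1 transcripts were also lower. Their part in the changes of members was not tested.

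On the axonal side Ran, Ipo9 and Ipo4 fell at the unadjusted threshold and no member rose, 3 of 45 members tested. They are the GTPase and 2 importins of histones. No member passed the adjusted threshold. Of the 13847 genes tested 2.15% rose, 6.56% fell and 0.404% passed the adjusted threshold, so that the share of members that fell, 6.67%, was that of all genes. The median log2 difference was -0.21 over the members tested and -0.18 over all genes.

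Ran was at 22.2, 36.8, 50.5 and 25.1 FPKM in axonal control libraries and at 14, 21.7 and 30.5 FPKM in knockdown libraries. After scaling the groups separated, with the lowest control at 27.2 and the highest knockdown library at 23.2 scaled FPKM, the 1 member lower without overlap here (2.07% of all genes; none was higher, against 0.455%). The log2 difference was -1.12 ± 0.39 (adjusted p = 0.367). The call was lost without control replicate 3, the highest of the group, with FPKM as deposited and without the libraries under a relative depth of 0.5. Gm13461 moved in the same direction, from 42.0 ± 8.9 to 20.8 ± 14 FPKM, with a log2 difference of -2.08 ± 0.77 (adjusted p = 0.427) and no overlap after scaling, though as deposited knockdown replicate 1 (34.4 FPKM) was above control replicate 1 (33.1 FPKM), and whether the 2 loci share fragments was not tested. Ran was thus lower in knockdown in both compartments, which share no library, while its copy passed the unadjusted threshold on the axonal and not on the somatodendritic side.

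Ipo9 (chromosome 1, 135382312 to 135430499) had 36.4, 38.3, 67.4 and 48.3 FPKM in control and 16.8, 31.2 and 65.7 FPKM in knockdown libraries, with overlap, and a log2 difference of -0.98 ± 0.42 (adjusted p = 0.523). Its call was lost with FPKM as deposited and in 6 of 10 fits without a library (control replicates 3 and 4 and knockdown replicates 2, 3, 4 and 6). Ipo4 (chromosome 14, 55625400 to 55637895) had control values of 24.3, 36.9, 16.8 and 28.0 FPKM. In knockdown libraries its highest value was 27.7 FPKM, its median 17 FPKM, and replicate 5, the shallowest, was at 0. The groups overlapped and the log2 difference of -1.69 ± 0.74 (adjusted p = 0.537) was lost without control replicate 1, 2 or 4, without knockdown replicate 6, with a pseudocount of 0.1 and with FPKM as deposited. The difference was -1.02 without knockdown replicate 5 and -0.81 with the replicate number as a block.

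Kpnb1 spread from 14.3 to 109 FPKM in axonal knockdown libraries, against 44.5, 85.9, 42.9 and 50.6 FPKM in controls (log2 difference -0.46 ± 0.46, adjusted p = 0.816). Ipo7, an importin of ribosomal proteins, was at 16.7 ± 1.8 FPKM in controls, while knockdown replicates 2, 4 and 5 were at 4.21, 2.81 and 4.27 FPKM and the other 3 between 19.9 and 25.2 FPKM (-1.21 ± 0.58, adjusted p = 0.582). The 3 low libraries are those with a relative depth under 0.5. Kpna6 (-1.12 ± 0.56, adjusted p = 0.6) and Kpna4 (-0.74 ± 0.52) were not called. Tnpo1 (0.18 ± 0.40), Nup50 (0.30 ± 0.51), Nup62 (-0.52 ± 0.89), Nup210 (-0.14 ± 0.55) and Ipo5 (-0.34 ± 0.46), the other genes called on the somatodendritic side, passed no threshold in axons, where the median SE was 0.56. Nor did Tpr (0.37 ± 0.33), Ranbp1 (0.09 ± 0.35), Rangap1 (-0.55 ± 0.43), Xpo1 (0.32 ± 0.53), Xpo6 (0.05 ± 0.43), Xpot (-0.26 ± 0.69), Nup153 (-0.22 ± 0.48), Nup98 (0.31 ± 0.56), Nup107 (-0.71 ± 0.66) or Nup214 (-0.48 ± 0.72).

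Without the library labelled axonal knockdown replicate 1, in which Tardbp was not lowered, 5 members fell, Ran, Ipo9, Ipo4, Ipo7 and Kpna6 (11.1% of members, against 9.63% of all genes called in that fit), and without control replicate 4 there was 1 call (2.22%, against 8.70%). With FPKM as deposited the 3 calls were different genes in the other direction, Tpr, Nup88 and Nup160 (6.67% of members, against 9.83% of all genes called), and over all genes the share of calls that were higher went from 24.7% to 72.8%. The median log2 difference of all genes then stood at 0.23 in place of -0.18. The dividing-cell markers summed to 171 to 294.5 FPKM in axonal control and 53.3 to 467 FPKM in axonal knockdown libraries, with 2 of 12 lower (Aurka and Ccnb1) and a median of -0.89. Nuclear long noncoding RNAs moved with the groups as well, with sums of 637 to 1007 FPKM in control and 1462 to 3176 FPKM in knockdown libraries, mostly Malat1 (311 to 489 and 1041 to 1800 FPKM), of which Malat1 alone of 7 tested was called (1.33 ± 0.29, adjusted p = 0.0731). Neuron markers summed to 605 to 718 FPKM and 553 to 1906 FPKM, with 1 of 7 higher. Motoneuron markers summed to 52.4 to 112.8 and 19.6 to 105.1 FPKM, with 1 of 4 lower and a median log2 difference of -0.99. Of astrocyte and radial glia markers 2 of 10 were lower and none was higher. The part of these RNAs in the calls of members was not tested.

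**Figure D2:**
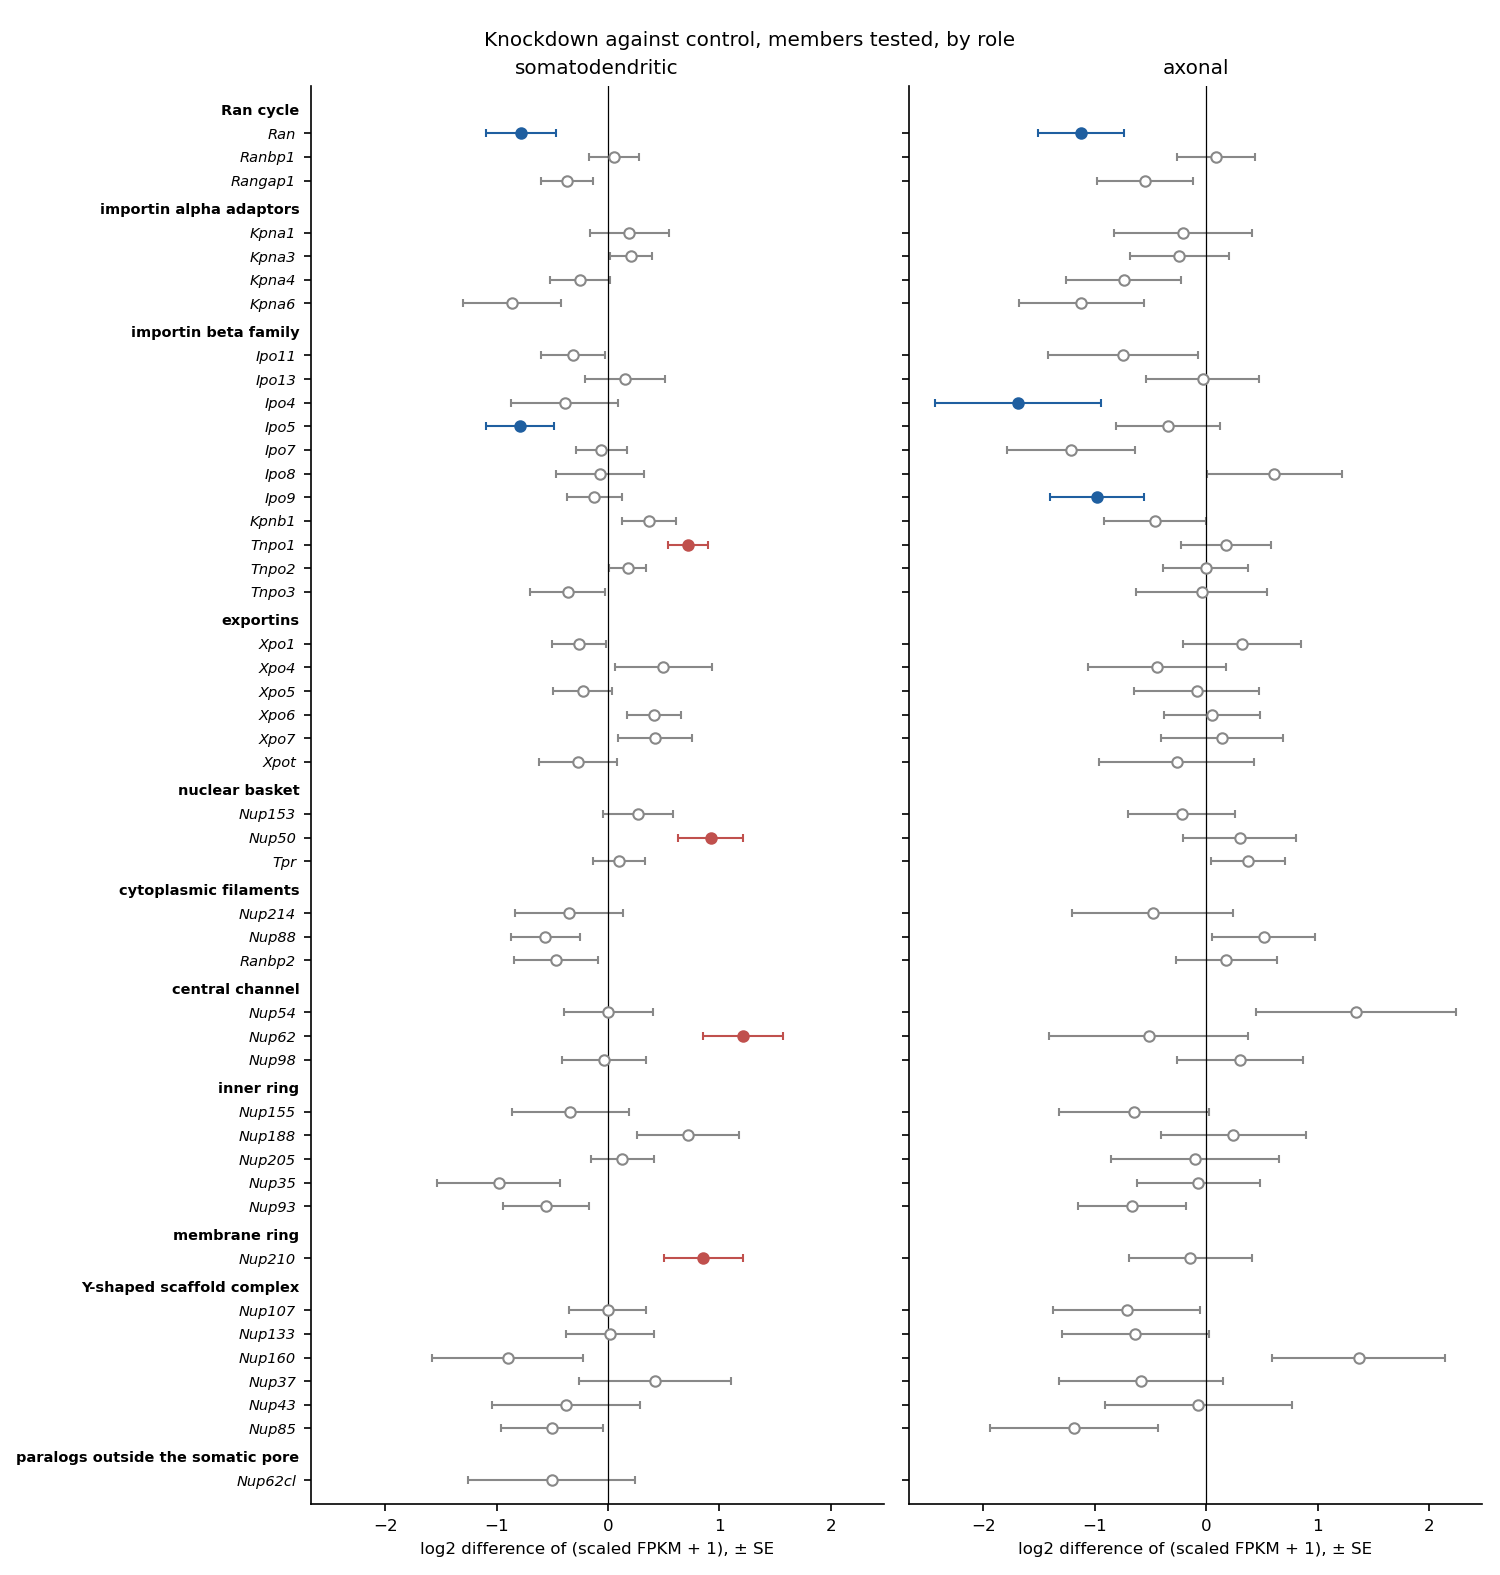
Log2 difference between knockdown and control, on the scale of log2(scaled FPKM + 1), for the members tested in somatodendritic (left, 46 members) and axonal libraries (right, 45 members), ordered by role, with bars of 1 SE. Filled red points rose and filled blue points fell at an unadjusted p under 0.05; bars are wider on the axonal side, and Ran is the member filled on both sides.

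Whether the effect of the knockdown differed between compartments was tested as the interaction over all 20 libraries. No member of 45 was called at the unadjusted threshold, with limma, against 5.66% of the 14018 genes tested, and none at the adjusted threshold, against 0.0713%. The effects on Ran, Tnpo1, Nup50, Nup62, Ipo5, Ipo9 and Ipo4 were therefore not shown to differ between axons and cell bodies, and the intervals were wide. The largest differences were those of Nup160 (2.27 ± 1.11, adjusted p = 0.9), of the Y-shaped complex, and Nup62 (-1.78 ± 1.09, adjusted p = 0.933). Nup160 was at 0 to 12.3 FPKM in somatodendritic and 8.44 to 61.4 FPKM in axonal knockdown libraries, where the highest was the shallowest library. For Ran the difference of the effects was -0.38 ± 0.48. Its interval of 2 SE reached from -1.34 to 0.58. With FPKM as deposited 2 members were called, Nup88 (1.37) and Nup160 (2.49), or 4.44% against 6.26% of all genes.

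The second comparison sets axonal against somatodendritic libraries, and asks which transcripts hold their level in axons. It uses the same libraries as the knockdown comparisons. In control cultures 7 of 46 members were higher in axonal libraries and none was lower. Of the 13699 genes tested 11.2% were higher and 11.7% lower at the unadjusted threshold. 6 of the 7 were Kpnb1, Ran, Ipo5, Ipo9, Kpna6 and Nup153. The other, Nup37, reached the filter only through the axonal group in which it was higher (0.302 against 2.19 scaled FPKM), so that its call has no weight of its own. By role the 6 were 3 of 11 members of the importin beta family, 1 of 3 of the Ran cycle, 1 importin alpha and 1 nucleoporin of the basket. 1 member passed the adjusted threshold, Kpnb1, against 6.85% of all genes. The median log2 difference was 0.13 over the members tested and -0.04 over all genes.

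Kpnb1 (chromosome 11, 97159714 to 97187881) was at 24.9, 33.5, 26.9 and 40.2 FPKM in somatodendritic and at 44.5, 85.9, 42.9 and 50.6 FPKM in axonal control libraries. Every axonal library was above every somatodendritic library. The log2 difference was 1.30 ± 0.27 (adjusted p = 0.0171). It was above 0 in each setting tried, from 0.78 to 1.39. The adjusted p ranged from 0.0124 to 0.0813 and was above 0.05 with FPKM as deposited and without somatodendritic control replicate 1 or 3. Its antisense neighbour Gm11583 was at 0 in 3 of 4 libraries of each control group.

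Ran was higher by 1.08 ± 0.33 (adjusted p = 0.077), with scaled values of 10.7 to 21.0 in somatodendritic and 26.0 to 62.1 scaled FPKM in axonal libraries. The groups did not overlap after scaling. This comparison shares its axonal controls with the axonal knockdown comparison, in which Ran was lower, so that the 2 results on Ran are not independent. Gm13461 was higher by 1.22 ± 0.32 (adjusted p = 0.0436). Ipo5 was higher by 0.70 ± 0.25 (adjusted p = 0.123) and Ipo9 by 0.74 ± 0.27 (adjusted p = 0.123), both without overlap of scaled values. Ran, Ipo5 and Ipo9 lost their calls with FPKM as deposited, and Ipo9 also without somatodendritic replicate 4. Kpna6 (0.80 ± 0.34, adjusted p = 0.192), an adaptor that links cargo to importin beta, and Nup153 (0.83 ± 0.32, adjusted p = 0.154) overlapped between compartments. Both lost their calls with quantile normalization and with FPKM as deposited. Kpna6 also lost its call without any 1 of somatodendritic replicates 1, 3 and 4 and axonal replicates 1 and 2, and Nup153 without any 1 of somatodendritic replicates 1, 2 and 4 and axonal replicate 3. Nup37 (1.39 ± 0.49, adjusted p = 0.117) was at 1.80, 2.0, 1.62 and 2.07 FPKM in axonal controls against 1 somatodendritic library above 0, values with a median of less than 1 implied fragment.

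Scaled values did not overlap for 5 members that were higher in axons (7.72% of all genes), which are Kpnb1, Ran, Ipo5, Ipo9 and Nup37, the last by way of the filter, and for 1 that was lower (8.42%). The latter was Xpo1, at 14.3, 15.6, 16.4 and 23.2 FPKM on the somatodendritic and 9.42, 7.92, 8.46 and 8.61 FPKM on the axonal side, with a log2 difference of -0.43 ± 0.27 that did not pass the test (adjusted p = 0.386). The largest negative difference was that of Nup54 (-1.31 ± 0.84, adjusted p = 0.387), a partner of Nup62 in the channel, which ran from 0.98 to 28.0 FPKM in axonal controls. Kpna3 (-0.52 ± 0.29, adjusted p = 0.308), Nup214 (-0.49 ± 0.43) and Nup160 (-0.47 ± 0.84) followed. Nup88 (14.6 ± 2.3 against 27.5 ± 5.3 FPKM, -0.36 ± 0.26) and Tnpo2 (17.1 ± 4.7 against 28.4 ± 1.7 FPKM, -0.23 ± 0.26) were lower as deposited and within 2 SE of 0 after scaling.

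Here too the scaling bore on the direction. The median log2 difference of all genes was -0.48 with FPKM as deposited, and the calls among members were then 2 higher (Kpnb1 and Nup37) and 5 lower (Kpna3, Xpo1, Nup88, Tnpo2 and Nup214), of which Kpna3, Xpo1 and Nup88 passed the adjusted threshold. The calls at the unadjusted threshold are 15.2% of members, against 31.3% of all genes. Of the 13760 genes tested in that fit 2055 passed the adjusted threshold. Over all genes the share of calls that were higher went from 49.0% to 17.1%. Kpnb1 was higher in axons in both. Without somatodendritic control replicate 4 there were 4 calls in place of 7 (8.70% of members, against 19.5% of all genes), and without axonal control replicate 3 or 4 there were 9 and 10 (19.6% and 21.7%, against 24.1% and 27.4%). Markers of other cells moved with the compartment: 10 of 12 markers of dividing cells were higher in axonal controls, 5 of them at the adjusted threshold, with a median of 1.51 and sums of 171 to 294.5 against 84.9 to 114.5 FPKM, and 7 of 7 neuron markers were lower. Of astrocyte and radial glia markers Nes (3.42 ± 0.35) and Vim (2.13 ± 0.23) were higher at the adjusted threshold and Gfap and Aqp4 were lower, of fibroblast markers Col1a1 was higher (3.51 ± 0.52, adjusted p = 0.00425) and Thy1 lower, and 3 of 7 oligodendrocyte and Schwann cell markers were lower. Motoneuron markers were lower in 3 of 5 genes and nuclear long noncoding RNAs in 2 of 7, each list with 1 at the adjusted threshold. Of microglia and blood markers 1 of 3 was lower. The part of all these markers in the calls of these members was not tested.

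In knockdown cultures, which share no library with the control cultures, 4 of 45 members were higher in axonal libraries, Ran, Ipo5, Ranbp2 and Nup160, and 1 was lower, Kpna3. Of the 13942 genes tested 7.9% were higher, 8.74% lower and 1.28% past the adjusted threshold, which no member passed. The median log2 difference was 0.04 over the members tested and -0.06 over all genes. With FPKM as deposited 2 members were higher, Ipo5 and Nup160, and 2 lower, Kpna3 and Nup62 (8.89% of members, against 18.1% of all genes). Of markers, 7 of 7 for neurons and 5 of 5 for motoneurons were lower in these axonal libraries, and 5 of 12 for dividing cells were higher. Other lists moved both ways, with 3 higher and 1 lower for fibroblasts, 2 and 1 for astrocytes, 1 and 3 for the oligodendrocyte lineage and Schwann cells, and 2 and 1 for nuclear long noncoding RNAs. Their part in the calls of members was not tested. Ran (0.76 ± 0.34, adjusted p = 0.272) and Ipo5 (1.18 ± 0.43, adjusted p = 0.177) were thus higher in axons of both kinds of culture. Ran lost this call with FPKM as deposited, with the replicate number as a block and without any 1 of 7 of the 12 libraries (somatodendritic replicates 1, 2, 3 and 4 and axonal replicates 1, 3 and 6). The copy of Ran, Gm13461, was not higher there (-0.11 ± 0.77, adjusted p = 0.965). Ipo5 was at 4.19 to 16.5 FPKM in somatodendritic and 6.67 to 40.6 FPKM in axonal knockdown libraries, and kept its call in every setting tried.

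Ranbp2 (chromosome 10, 58446852 to 58494155), the largest protein of the cytoplasmic filaments and a SUMO ligase, had 2.03, 6.88 and 9.65 FPKM as the lowest, median and highest somatodendritic and 7.84, 11.4 and 18 FPKM as the corresponding axonal values. Scaled values did not overlap, by a narrow margin of 8.25 against 8.36 scaled FPKM (1 member higher without overlap; 1.1% of all genes). The log2 difference was 1.07 ± 0.41 (adjusted p = 0.198). It was lost with FPKM as deposited, with array weights and without the shallow libraries.

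Kpna3 (chromosome 14, 61365186 to 61439947), importin alpha 4, ran from 22.7 over 26.4 to 30.1 FPKM in somatodendritic and from 5.25 over 12.2 to 13.7 FPKM in axonal knockdown libraries. The groups did not overlap (1 member lower; 1.38% of all genes), and the log2 difference of -0.96 ± 0.32 (adjusted p = 0.139) passed the unadjusted threshold in every setting tried. Control cultures gave 19.6 ± 3.1 and 9.37 ± 2.57 FPKM, without overlap as deposited, and there the test was passed with FPKM as deposited and not after scaling. Nup160 (1.82 ± 0.63, adjusted p = 0.151) lost its call with array weights and without the shallow libraries, 1 of which held its highest value. Nup35 of the inner ring (1.06 ± 0.56, adjusted p = 0.362), Nup88 (0.75 ± 0.41), Nup62 (-1.38 ± 0.74, adjusted p = 0.366), Ipo4 (-1.20 ± 0.74), Xpo4 (-0.88 ± 0.58) and Ipo7 (-0.88 ± 0.49) made up the other extremes and were not called. Kpnb1 was at 0.50 ± 0.39 (adjusted p = 0.561) in these cultures, and was called higher without axonal knockdown replicate 4 (0.85), without the shallow libraries (1.0) and with array weights (0.75). Its difference of effects between compartments was -0.85 ± 0.55 (adjusted p = 0.933).

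**Figure D3:**
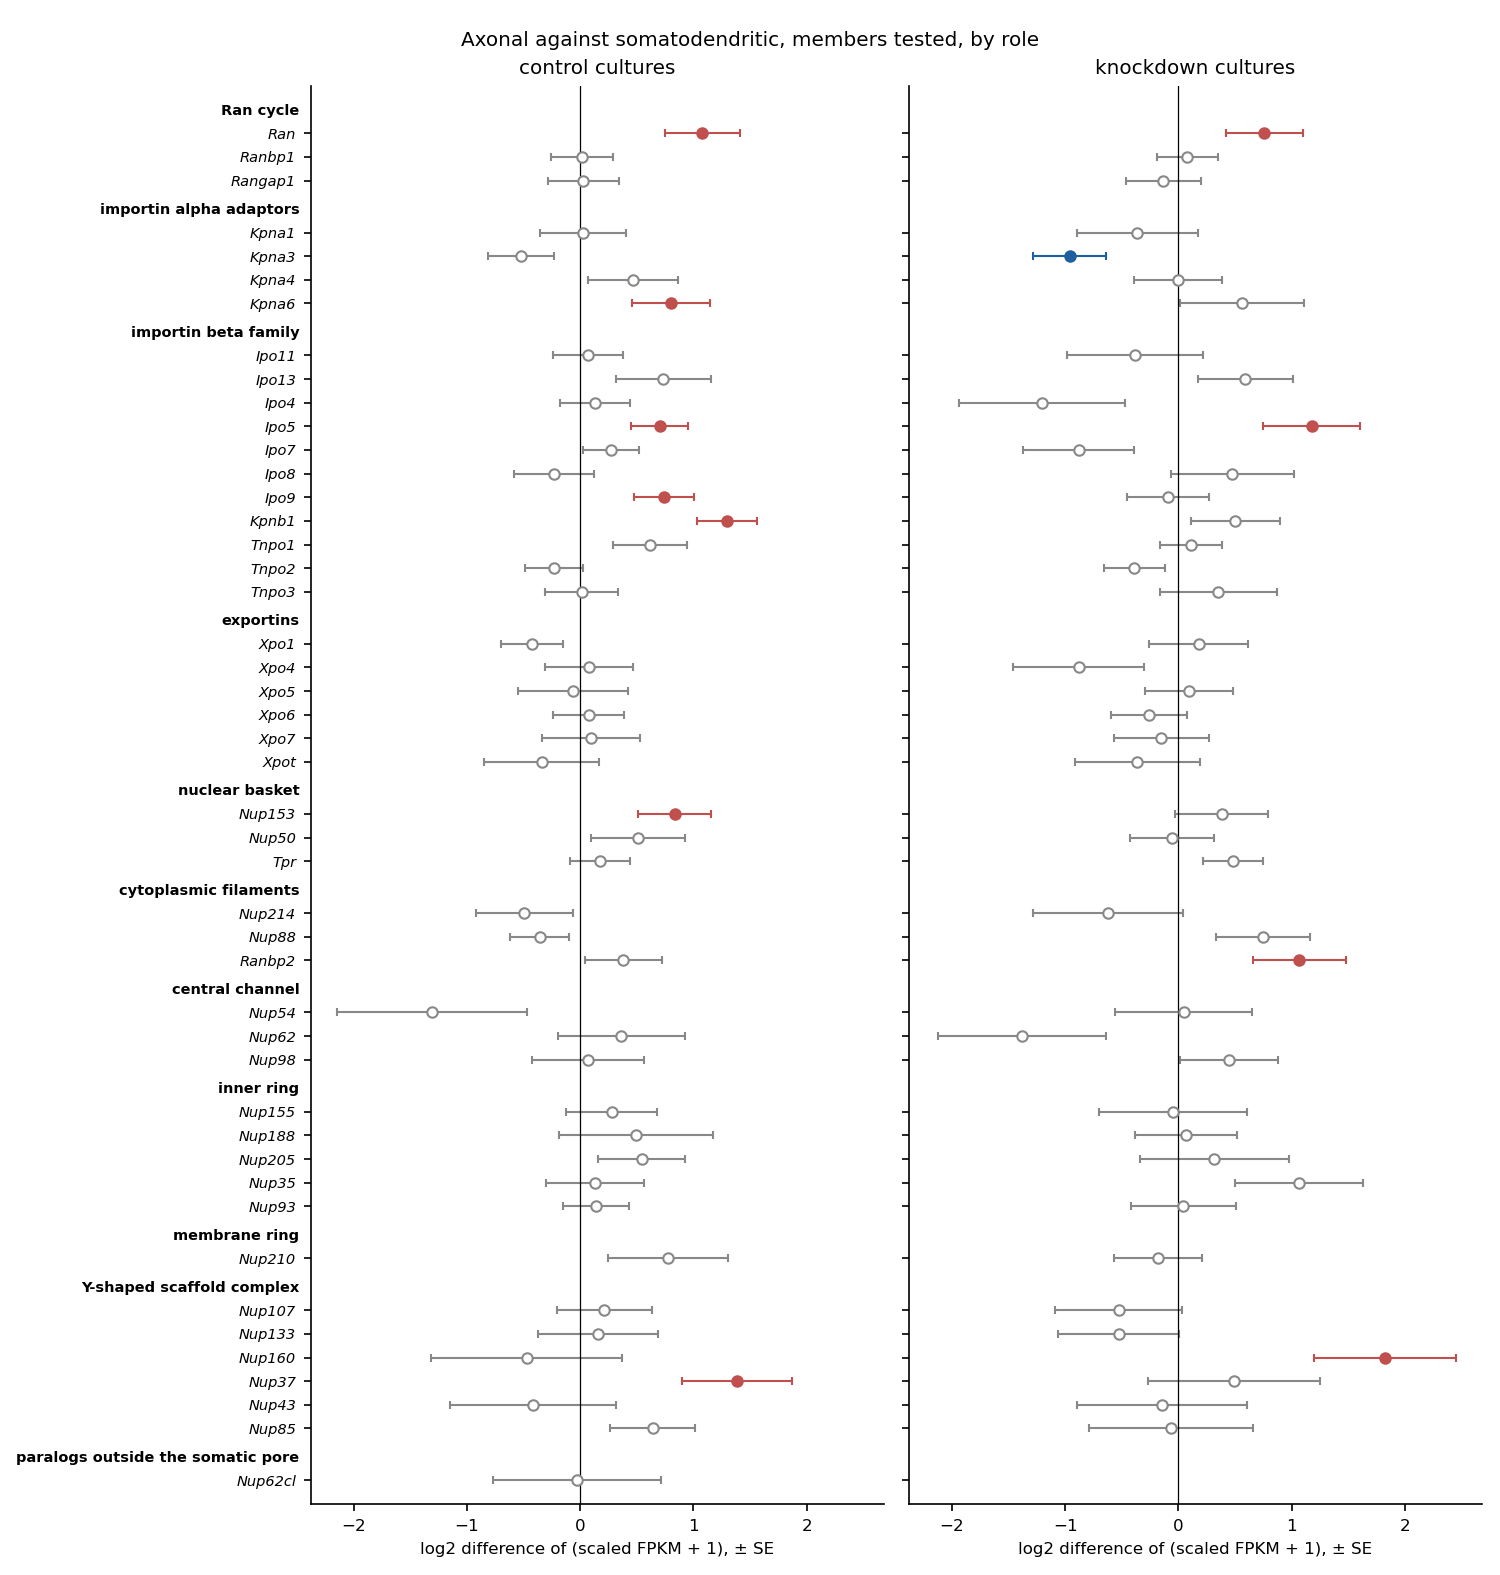
Log2 difference between axonal and somatodendritic libraries, on the scale of log2(scaled FPKM + 1), for the members tested in control (left, 46 members) and knockdown cultures (right, 45 members), ordered by role, with bars of 1 SE. Filled red points were higher and filled blue points lower in axonal libraries at an unadjusted p under 0.05; Ran and Ipo5 are filled in both panels, Kpnb1 in the left one.

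Genes with near-identical copies were followed beside their copies. The level of Gm13461 was higher than that of Ran in 12 of the 20 libraries, and both had their highest group mean in axonal controls, at 33.6 ± 12.9 FPKM for Ran and 42.0 ± 8.9 FPKM for Gm13461. Gm6493 stayed below Tnpo1 in every library. It was higher in axonal than in somatodendritic controls by 2.13 ± 0.50 (adjusted p = 0.0287), where Tnpo1 had 0.62 ± 0.32 (adjusted p = 0.287). What part the shared sequence has in these values was not tested.

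**Figure D4:**
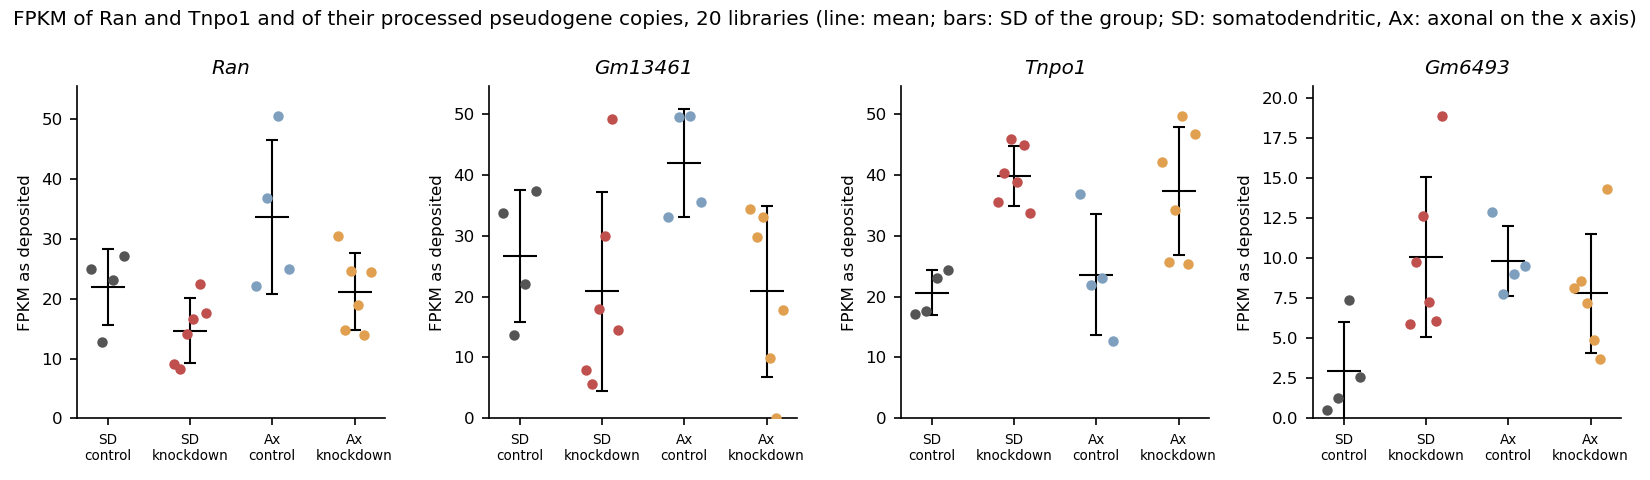
Deposited FPKM (y axis, from 0, with a scale for each panel) of Ran, Tnpo1 and their processed pseudogene copies Gm13461 and Gm6493 in the 4 groups (x axis; SD, somatodendritic; Ax, axonal). Points are libraries, lines are means and bars SD, which end at 0 where they would go below; Ran and Gm13461 have their highest group mean in axonal controls.

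Other genes of the pathway and of the nuclear envelope were counted from lists. Of 41 other pore and transport genes tested on the somatodendritic side 3 rose and none fell, against 4.61% and 9.3% of all genes: Pom121, a pore membrane protein (from 12.4 to 28.8 scaled FPKM, log2 difference 1.16 ± 0.21, adjusted p = 0.0193), Alyref, an mRNA export adaptor (0.97 ± 0.35, adjusted p = 0.228), and Ranbp3, a cofactor of Xpo1 (0.57 ± 0.25, adjusted p = 0.342). Ndc1, another pore membrane protein, was not called (0.63 ± 0.30, adjusted p = 0.374). In axons, where 2.15% of all genes rose and 6.56% fell, 2 of 40 rose, Gle1, which acts in mRNA release at the pore (1.38 ± 0.55, adjusted p = 0.476), and Fyttd1, an mRNA export adaptor (1.14 ± 0.48, adjusted p = 0.513), and 1 fell, Pcid2 (-1.46 ± 0.60, adjusted p = 0.491). In control cultures, where 11.2% of all genes were higher and 11.7% lower, 5 of 41 were higher in axonal libraries, Ahctf1, Alyref, Pcid2, Rcc1 and Sec13, and 1 was lower, Ranbp9. Rcc1, the exchange factor that loads Ran with GTP, was higher by 1.2 ± 0.37 (adjusted p = 0.0777), with 3.22 against 9.03 scaled FPKM. In knockdown cultures 1 of 41, Nxt2, was lower in axons (8.74% of all genes).

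Of the nuclear envelope and lamina 17 entries were tested, among which Syne1 is listed more than once. In control cultures 5 were higher in axonal libraries (11.2% of all genes), Lmna (2.2 ± 0.36, adjusted p = 0.00632), Lmnb1, Emd, Tmpo and Tor1aip1, and 1, Syne1, was lower (11.7%). In knockdown cultures none was higher in axonal libraries, against 7.9% of all genes. There 1 was lower, Tor1a (-2.73 ± 0.79, adjusted p = 0.0936), against 8.74%. Between knockdown and control on the somatodendritic side, Banf1 rose (0.51 ± 0.20), against 4.61% of all genes. Lmnb1 (-0.66 ± 0.29) and Syne1 (-0.76 ± 0.32) fell, against 9.3%, while none was called in axons. In the interaction 1 was called, Syne1 (1.42 ± 0.65, adjusted p = 0.87), against 5.66% of all genes. The markers of dividing cells were higher in axonal controls as given above, and their part in these differences was not tested.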

How the data were processed

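RNA of 20 libraries (4 control and 6 knockdown of each compartment) was quantified by the authors as FPKM per gene with Cufflinks 2.2.1 on GRCm38, after FastQC 0.10.1, as the submitters' processing notes name them. The aligner and the use of strand are not given in the sources used here. The deposited FPKM values are normalized, not counts, and the 95% intervals beside them served only to estimate relative depth (deepest library at 1) and implied fragments.

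FPKM values were scaled by the median of ratios, set to log2(FPKM + 1) and tested with limma 3.58.1 (lmFit, eBayes with trend; R 4.3.3) over genes whose mean reached 1 scaled FPKM, and p-values were adjusted by Benjamini and Hochberg's method across every gene in the fit. Values up to 0.001 FPKM were taken as 0. Groups were taken from the labels. The fits were tested on simulated data. Kpna7 and Nup210l (and Nup62cl where axonal knockdown libraries enter) were below the filter.

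Named with values were the 10 members with the highest mean, a list of transport genes, each member with an unadjusted p under 0.05 in a knockdown comparison or the interaction, the 5 largest rises and falls in each compartment comparison and members at 0 in a whole group. The members and lists were chosen with earlier results of these data known. As alternatives, values were left unscaled (FPKM as deposited) or quantile normalized, the pseudocount was set to 0.1 or 5, and the filter was dropped or set to 5 FPKM. Further alternatives were array weights, the replicate number as a block, all 20 libraries in 1 fit and each library left out. Leaving out the 5 libraries whose relative depth was below 0.5 was added after seeing the data. Copies were GENCODE M21 transcripts with at least 95% identity over at least 300 bases. Plots were drawn in matplotlib 3.10.9, and tables were built in Python 3.11.15 (pandas 2.3.3, numpy 2.4.6).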

Additional observations from a re-analysis of the deposited data

Results flagged for a closer look

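Single libraries stood apart from the rest of their group, by the share of the group's range that lies between the extreme library and its neighbour, in 18 of 140 sets of FPKM values (35 named members in 4 groups). The limit used is passed in about 1 in 20 sets of normally distributed values. FPKM values end at 0 and need not be so distributed, so that no excess can be read from the count. Sets at 0 in all libraries, as those of Kpna7, are among the 140 and could not be flagged. The causes were not tested. In axonal knockdown replicate 5, the library of the lowest relative depth (0.103), Nup160 was at 61.4, Nup54 at 90.57, Nup88 at 74.65 and Xpo1 at 50.09 FPKM, each above the other 5 libraries. In somatodendritic knockdown replicate 6 (relative depth 0.143), Nup62 was at 91.37, Nup37 at 7.601 and Xpo4 at 13.61 FPKM. The library labelled axonal knockdown replicate 1 had 75.28 FPKM of Nup62.

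Low libraries were somatodendritic control replicate 3 for Ipo4 (20.14 FPKM), axonal knockdown replicate 4 for Kpna3 (5.252 FPKM) and axonal knockdown replicate 2 for Kpna4 (2.48 FPKM). Kpna4 was high in axonal control replicate 2 (19.54 FPKM) and Xpot in somatodendritic knockdown replicate 4 (11.78 FPKM). Genes near 0 stood out by 1 library above the rest: Nup37 in somatodendritic control replicate 1 (1.467 FPKM), Nup210l in somatodendritic knockdown replicate 4 (0.3499 FPKM) and axonal knockdown replicate 2 (2.31 FPKM), and Nup62cl in replicate 2 of somatodendritic control (6.212 FPKM) and of somatodendritic knockdown (6.82 FPKM).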

How the results depend on the processing

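Of 21 calls of single members at the unadjusted threshold none reversed in an alternative, 12 were lost with FPKM as deposited, 11 were lost in no fit without a library and 6 in no other alternative. At the adjusted threshold, the somatodendritic knockdown comparison had 1 member with FPKM as deposited (Tnpo1) and 2 with array weights (Tnpo1 and Nup50). There 233 of 13762 and 434 of 13734 genes passed it. The control compartment comparison had 3 members with FPKM as deposited, all lower in axons, where 2055 of 13760 genes passed it. With all 20 libraries in 1 fit the unadjusted calls were 3 in somatodendritic and 5 in axonal knockdown (6.67% and 11.1% of members, against 7.08% and 15.2% of all genes). For the difference between compartments they were 2 with FPKM as deposited, 1 with quantile normalization, 1 with array weights and 2 without the libraries under a relative depth of 0.5, where 6.26%, 6.37%, 6.73% and 6.38% of all genes were called. Axonal Tardbp was at 35.1% of control after scaling (exact permutation p = 0.00952).

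Leaving out each library gave 4 to 7 somatodendritic and 1 to 5 axonal knockdown calls. These are 8.696% to 15.56% and 2.222% to 11.11% of members, against 10.82% to 15.69% and 6.433% to 9.923% of all genes. Compartment calls were 4 to 10 in control and 4 to 7 in knockdown cultures. They are 8.696% to 21.74% and 8.889% to 15.56% of members, against 17.93% to 27.38% and 14.01% to 19.94% of all genes. For the difference between compartments there were 0 to 3, or 0% to 6.667% of members against 4.377% to 6.837% of all genes. Adjusted calls ranged from 0 to 1 in both compartment comparisons (0 in control without somatodendritic control replicate 1 or 3; 1, Ipo5, in knockdown without axonal knockdown replicate 4). Axonal Tardbp ranged from 36.5% to 62.5%.

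Replicate numbers gave no clear pairing: deviations of same-numbered libraries correlated at -0.0594 to 0.0866. The same number gave the highest correlation in some pairs, as in axonal control and knockdown replicates 1, 3 and 4, and not in others, as in replicate 2. Values this small cannot settle whether same-numbered libraries share a culture. With the replicate block there were 9 somatodendritic and 5 axonal knockdown calls and 1 for the difference between compartments, which are 19.6%, 11.1% and 2.22% of members against 15.4%, 9.82% and 5.24% of all genes. Without the shallow libraries there were 7 somatodendritic and 2 axonal knockdown calls and 5 compartment calls in knockdown cultures, which are 15.6%, 4.44% and 11.1% of members against 15.97%, 7.70% and 18.2% of all genes. Without a filter on low values Nup62cl, which is at 0 in all axonal knockdown libraries, was also called lower there, and no fold is given for it. The part of depth in the spread between libraries was not tested.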
